A study of Rattus norvegicus with 12 samples.

Results

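The genes described here are 8 regulators of the mitochondrial step of cell death: Bcl2, Bcl2l1, Bcl2l2 and Mcl1, which oppose it, Bax, Bak1 and Bok, which carry it out, and Bag1, which binds Bcl2. Members were taken as probe sets whose single gene symbol in the platform table was 1 of these 8 names. The rule found 12 probe sets for 7 of the 8 genes, out of 20826 probe sets with 1 symbol among 31099 on the array (14217 genes). Bax was represented by 1 probe set that lists several symbols, so no value is given for it. Of the 12 probe sets, 9 were bright enough to be tested, and they stand for 6 genes (Bcl2l1, Bcl2l2, Mcl1, Bak1, Bok and Bag1). The name of the set holds for 7 of the genes by sequence: Bag1 is a co-chaperone with no Bcl-2 homology domain and is a partner of the family, not a homologue.

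Multidomain Bcl-2 proteins share several Bcl-2 homology domains and meet on the outer mitochondrial membrane. Bax and Bak open pores there and let cytochrome c out, which starts the caspases, while Bcl-2, Bcl-xL (the product of Bcl2l1), Bcl-w (the product of Bcl2l2) and Mcl-1 hold them and the BH3-only proteins in check. Cultured cerebellar granule neurons live in medium with raised potassium and die by apoptosis after a switch to low potassium, a process that needs new transcription and Bax.

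The study hybridised total RNA of cultured rat cerebellar granule neurons to 12 Affymetrix arrays. Its 4 groups of 3 arrays are low potassium and GW5074, each at 3 h and at 6 h. GW5074 is a small-molecule inhibitor of the kinase c-Raf. It is not stated if cultures given GW5074 had low potassium too. No group in raised potassium was analysed here, so a change between 3 h and 6 h cannot be told apart from the effect of longer culture. The array titles name no batch, so a batch difference between the times cannot be told apart from time either. No source used here gives the strain, the dose or the age of the cultures. Within a group the arrays carry the letters A, B and C, and the labels do not say whether these are separate cultures, so the p-values measure a spread that may be technical. The 6 h GW5074 array of letter A has a title suffix unlike that of the other 11, with no meaning given.

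The deposited values are intensities on a linear scale, with the mean of each array between its lowest and highest 2% at 150.0 to 150.1. The number of arrays limits the precision. Both 6 h arrays of letter B lay between the times on the main axis of variation (the first principal component of the tested probe sets). Its scale runs from the mean of the 3 h arrays to that of the 6 h arrays, letter B included, and does not measure hours. The 3 h arrays lay between -0.0844 and 0.115. Those of letter B at 6 h stood at 0.691 (low potassium) and 0.628 (GW5074), and the other 6 h arrays at 1.099 to 1.235. The group means of the 3-prime minus 5-prime log2 difference, a sign of RNA quality, were 0.933 to 1.101 for actin and 0.126 to 0.158 for GAPDH. Of 10 granule neuron markers, 9 were tested, and their summed intensity was 6532 to 8401 on the 3 h low-potassium arrays, 6709 to 7597 on the 3 h GW5074 arrays, 8966 to 10370 at 6 h in low potassium and 10370 to 11490 at 6 h with GW5074. Markers of astrocytes (7 of 8 tested) and of the oligodendrocyte lineage (7 of 9 tested) were measured too, while Aif1, Itgam, Cx3cr1 and Ptprc of microglia were too dim to be tested.

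In the fit used throughout, Bag1 and Mcl1 were the only tested members with a change that passed, and both fell between 3 h and 6 h. Bag1 fell in both treatments and Mcl1 with GW5074. The 250 bases before their RefSeq transcription starts are printed because these falls are the members' only calls. They lie on the minus strand of chromosome 5 for Bag1 (GRCr8, chr5:60877060-60877309) and on the plus strand of chromosome 2 for Mcl1 (GRCr8, chr2:185907918-185908167), and are written 5′ to 3′ along the gene. Capitals mark GC boxes (GGGCGG) and half-sites of the cyclic AMP response element (TGACG), on either strand.
Bag1: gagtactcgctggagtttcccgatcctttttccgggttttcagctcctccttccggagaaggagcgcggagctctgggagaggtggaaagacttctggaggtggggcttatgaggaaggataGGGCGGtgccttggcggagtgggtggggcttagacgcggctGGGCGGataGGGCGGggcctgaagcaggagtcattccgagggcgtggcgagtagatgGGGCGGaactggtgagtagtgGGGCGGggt
Mcl1: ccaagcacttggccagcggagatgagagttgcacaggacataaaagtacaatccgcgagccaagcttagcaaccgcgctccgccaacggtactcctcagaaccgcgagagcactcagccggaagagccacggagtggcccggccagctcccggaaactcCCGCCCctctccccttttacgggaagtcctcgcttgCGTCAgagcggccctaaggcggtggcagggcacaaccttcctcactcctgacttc
The Bag1 window holds 5 GC boxes, the sequence that Sp1-type factors bind, and the Mcl1 window holds 1. GC boxes were found in 32.4% of 27457 RefSeq promoters of the same length, and 5 or more in 1.84%. The Mcl1 window also holds 1 TGACG half-site on its minus strand, 55 to 51 bases before the start, and 19.0% of all promoters hold one, a share that includes every full TGACGTCA site (1.70%). GC content was 62.8% for Bag1 and 62.0% for Mcl1, against a median of 52.0% and an upper quartile of 60.8% over all promoters. The windows hold 17 and 19 CpG dinucleotides, against a median of 6.0. The shares with GC boxes are over all promoters and were not taken among those of like GC content. Neither window holds TGANTCA (AP-1, 6.36% of promoters), CCAAT (34.3%), TATAAA (13.1%), CACGTG (the E-box, 5.79%) or a CArG box (1.50%). Among the other members, Bcl2l2 and Bak1 hold 1 GC box each, the Bcl2 window has 1 TATAAA and a GC content of 33.6%, and the Bcl2l1 window has no match. RefSeq promoters were matched for 6 of the 8 members, Bax and Bok excepted. These matches describe letters in the windows and were not tested against the arrays.

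Bag1, a co-chaperone of Hsc70 that also binds Bcl-2 and Raf-1, separated by time, with the treatments overlapping at each time. Its intensity (probe set 1375550_at) was 649.3, 677.5 and 672.2 at 3 h in low potassium (letters A, B and C) and 654.5, 718.2 and 677.2 at 3 h with GW5074. At 6 h the low-potassium arrays read 390, 430.9 and 408.2 and the GW5074 arrays 373.3, 452.2 and 426.8. All 6 arrays at 6 h were below all 6 at 3 h, by a wide gap. The group means ± SD were 666.3 ± 15.0, 683.3 ± 32.3, 409.7 ± 20.5 and 417.4 ± 40.3 in the same order (n = 3 each).

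In low potassium Bag1 fell by 0.70 on the log2 scale, a 1.62-fold decrease (95% interval of the log2 change -0.95 to -0.45, limma adjusted p = 0.00155). With GW5074 it fell by 0.73, a 1.66-fold decrease (interval -0.98 to -0.48, limma adjusted p = 0.0009365). Log2 and fold changes are of the normalised intensity plus 16, which understates the change of dim genes. The falls were not unusual in size for these arrays: 7.51% of the probe sets tested lay lower in low potassium and 7.14% with GW5074. Without both 6 h arrays of letter B, the log2 changes were -0.74 and -0.81, at limma adjusted p of 0.000675 and 0.000354.

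**Figure D1:**
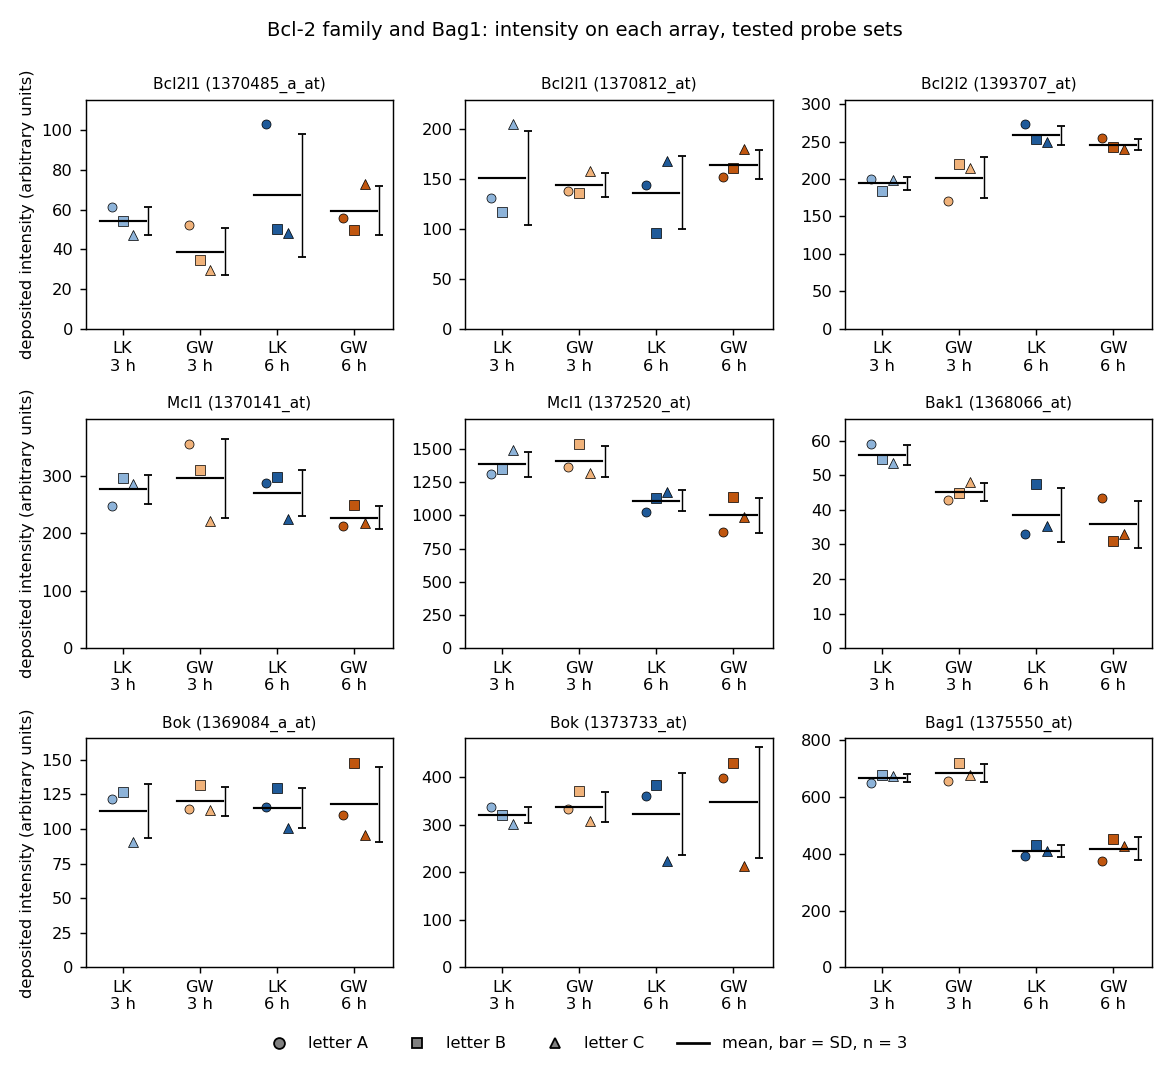
Deposited intensity (linear scale) of the 9 tested probe sets of 6 genes on each of the 12 arrays, 1 panel a probe set. Points are the arrays of letters A, B and C in each group, with bars for the group mean and SD. Bag1 separates by time, with 3 h means of 666.3 and 683.3 against 409.7 and 417.4 at 6 h, and the low-potassium and GW5074 points overlap at each time.

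Mcl1, which encodes a short-lived guardian that binds Bak and Bim, was also lower at 6 h. On probe set 1372520_at its intensity was 1315, 1347 and 1490 at 3 h in low potassium and 1364, 1540 and 1316 at 3 h with GW5074. At 6 h the low-potassium arrays read 1022, 1129 and 1178 and the GW5074 arrays 874.5, 1138 and 985. The 3 h and 6 h arrays did not overlap within either treatment, and the lowest value was that of letter A at 6 h with GW5074. Group means ± SD were 1384 ± 93.55 and 1406 ± 117.9 at 3 h and 1109 ± 79.7 and 999.3 ± 132.4 at 6 h (low potassium first, n = 3 each).

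With GW5074, Mcl1 fell by 0.45 on the log2 scale between 3 h and 6 h, a 1.36-fold decrease (interval -0.69 to -0.20, limma adjusted p = 0.0129). In low potassium the log2 change was -0.25, with an interval of -0.49 to 0.00062 and a limma adjusted p of 0.1375, which did not pass. The difference between the time changes was -0.20 (interval -0.55 to 0.15, limma adjusted p = 0.9998), so the fall was not shown to differ between treatments. The call with GW5074 was lost without the 3 h GW5074 array of letter B (-0.39, limma adjusted p = 0.0650) and without the 6 h GW5074 array of letter A, the one with the unlike title suffix (-0.36, limma adjusted p = 0.0676). Without both 6 h arrays of letter B it was -0.56 (limma adjusted p = 0.00239).

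The second Mcl1 probe set, 1370141_at, read 212.4 to 356.5 over the 12 arrays, with group means of 277.1, 296.3, 270.7 and 227.0 in the order low potassium and GW5074 at 3 h, then at 6 h. Its log2 change with time was -0.41 with GW5074 (limma adjusted p = 0.104) and -0.10 in low potassium (limma adjusted p = 0.729). Both probe sets thus had negative changes in both treatments, and 1 of the 2 passed the test with GW5074. Without the 3 h GW5074 array of letter C the second probe set passed too, at -0.60 (limma adjusted p = 0.0218). This raised the number of member probe sets called in that comparison to 3, that of Bag1 and both of Mcl1. Levels of different probe sets are not compared, since each has its own brightness.

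Bcl2l2 encodes Bcl-w, a guardian that is abundant in mature neurons. Its tested probe set (1393707_at) read 199.5, 184.5 and 198.7 at 3 h in low potassium and 170.7, 220.4 and 214.9 at 3 h with GW5074. At 6 h the low-potassium arrays read 273.2, 253.7 and 249.4 and the GW5074 arrays 254.2, 242.9 and 240.8. Every 6 h array was above every 3 h array, in the direction opposite to Mcl1 and Bag1. The log2 change with time was 0.33 in low potassium (interval 0.05 to 0.60, limma adjusted p = 0.0841) and 0.19 with GW5074 (interval -0.09 to 0.47, limma adjusted p = 0.306). Neither passed. With no normalisation beyond the deposited scaling, the change in low potassium was 0.39 and did pass (limma adjusted p = 0.0463).

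Bak1, a pore-forming member that sits on mitochondria in healthy cells, was dim. It read 59.15, 54.62 and 53.59 at 3 h in low potassium and 42.84, 44.75 and 48.01 at 3 h with GW5074. The low-potassium arrays at 6 h read 32.94, 47.37 and 35.23 and the GW5074 arrays 43.53, 31.02 and 32.93. The 3 low-potassium arrays at 3 h were the highest of the 12, and the other groups overlapped. From 3 h to 6 h the log2 change was -0.41 in low potassium (interval -0.79 to -0.02, limma adjusted p = 0.116) and -0.20 with GW5074 (limma adjusted p = 0.458). Neither passed after adjustment.

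Bok, a pore-forming relative found on other membranes as well, had groups that all overlapped. On probe set 1373733_at the values were 336.2, 320.7 and 302 at 3 h in low potassium and 333.4, 371.3 and 307.4 at 3 h with GW5074. At 6 h the low-potassium arrays read 360.3, 382.5 and 223.7 and the GW5074 arrays 398.3, 429.5 and 213. Both 6 h arrays of letter C were lower than every other array, and the other 4 arrays at 6 h were above 5 of the 6 arrays at 3 h. Its log2 changes between the times were -0.06 without GW5074 and -0.07 with it, and without the letter C array of the 6 h group concerned they were 0.18 and 0.24. The second Bok probe set (1369084_a_at) read 90.34 to 147.6, with changes of -0.03 and -0.09.

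Bcl2l1, whose main product Bcl-xL is the leading guardian of developing neurons, had group means of 135.9 to 164.1 and SDs of 12.1 to 47.2, and all groups overlapped. On probe set 1370812_at it read 130.3, 116.8 and 204.5 at 3 h in low potassium and 137.7, 136.2 and 157.9 at 3 h with GW5074. Later, at 6 h, the low-potassium arrays read 143.6, 96 and 168.1 and the GW5074 arrays 151.4, 160.8 and 180.2. The letter C arrays were the highest in all 4 groups. Its log2 changes with time were -0.19 in low potassium and 0.10 with GW5074, with limma adjusted p of 0.542 and 0.771. The probe set 1370485_a_at read 29.7 to 102.9 and had changes of 0.18 and 0.51 (limma adjusted p = 0.642 and 0.150), so the 2 probe sets differed in sign in low potassium.

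The remaining probe sets were too dim to be tested. Bcl2, the founding guardian, read 1.095 to 33.95 over the 12 arrays, with means ± SD of 17.9 ± 16.4 and 12.7 ± 3.60 at 3 h and 13.2 ± 6.54 and 11.5 ± 8.21 at 6 h (low potassium first, n = 3 each). All groups overlapped. A further Bcl2l1 probe set (1369180_at) read 2.385 to 31.75 and a further Bcl2l2 probe set (1369611_at) 1.098 to 31.22. Their means over the arrays lay at percentiles 24.71, 29.66 and 19.91 of all probe sets, under the minimum of 40.

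**Figure D2:**
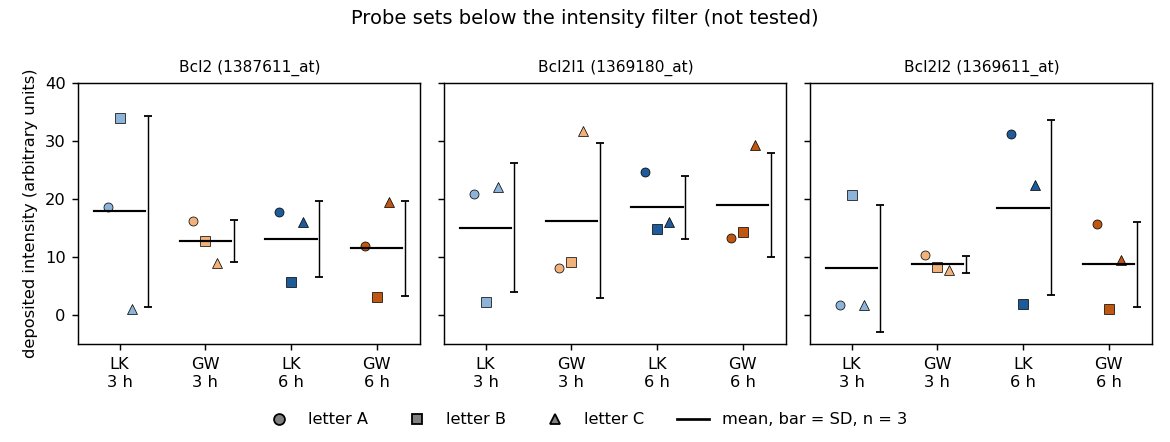
Deposited intensity (linear scale) on each of the 12 arrays for the 3 member probe sets too dim to be tested, 1 panel a probe set, with bars for the group mean and SD. The Bcl2 probe set stays between 1.095 and 33.95 in all 4 groups, and the groups overlap.

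Ordered by mean intensity, Bag1 and Mcl1 both ran from GW5074 and low potassium at 3 h down to the pair of 6 h groups, and the break between times was the only step whose ranges did not overlap. Bcl2l2 ran from low potassium and GW5074 at 6 h down to GW5074 and low potassium at 3 h, again with 1 step free of overlap, between the times. For Bak1 that step lay between low potassium at 3 h and the other 3 groups. For Bcl2l1 the order was the 6 h GW5074 group, the 3 h low-potassium group, the 3 h GW5074 group and the 6 h low-potassium group, and for Bok the GW5074 groups (6 h, then 3 h) had higher means than those in low potassium (6 h, then 3 h). In both of these, neighbours overlapped at every step.

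The question of the treatment comparison was whether GW5074 changed these genes relative to low potassium at the same time. None of the 9 member probe sets passed the test at 3 h, at 6 h, averaged over both times or for the difference between the 2 times (limma, Benjamini-Hochberg adjusted over 18625 probe sets). The share called over all probe sets tested was 0% in each of these 4 comparisons, so the members' count is that of the array as a whole. At an unadjusted p under 0.05 there were 299 probe sets at 3 h, 895 at 6 h, 468 for the average and 644 for the difference, and no member was among them. The letters pair the arrays within a time, and the fit without the block leaves differences between pairs in its spread. With the pairs as a block limma called 0.0161% of probe sets at 3 h, 1.87% at 6 h, 0.236% for the average and 0.177% for the difference, again with none of the 9. At an unadjusted p under 0.05 the block gave 1225, 3034, 1881 and 2506 probe sets in the same order, with 1 member among them, Mcl1 at 6 h. The fit without the block was thus the stricter over all probe sets.

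At 3 h the member log2 differences (GW5074 minus low potassium) ran from -0.39 to 0.08, with a median of 0.04 against -0.0033 for all probe sets tested. Mcl1 differed by 0.03 (interval -0.22 to 0.27), Bag1 by 0.04 (-0.21 to 0.29), Bcl2l2 by 0.04 (-0.23 to 0.32), Bcl2l1 by -0.02 (-0.47 to 0.43) and Bok by 0.06 (-0.45 to 0.58). These intervals leave room for changes of either sign, and the narrowest are those of Mcl1 and Bag1. Bak1 was the member whose 3 GW5074 arrays all lay below the 3 low-potassium arrays, and the groups did not overlap for 7.06% of all probe sets in this comparison. Its difference was -0.24 (interval -0.625 to 0.146, limma adjusted p = 1), negative in 3 of 3 pairs. The other Bcl2l1 probe set, 1370485_a_at, had the member difference furthest from 0, at -0.39 (interval -0.93 to 0.15, limma adjusted p = 1), with pairs of -0.13, -0.46 and -0.59 for letters A, B and C. Its groups overlapped, and its value is unlike the -0.02 of 1370812_at. The share of all probe sets with 3 pairs of the same sign was not counted. Agreement among pairs, here and at 6 h, is thus a description only.

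At 6 h none of the 9 probe sets had groups free of overlap, against 9.65% of all probe sets. The median member difference was -0.03 against 0.0015 for all. Mcl1 was lower with GW5074 in 3 of 3 pairs, with log2 differences of -0.26 for letter A, -0.00081 for letter B and -0.26 for letter C. Its fitted difference was -0.18 (interval -0.42 to 0.07, limma adjusted p = 0.983), and with the pairs as a block the interval was -0.34 to -0.01 (limma adjusted p = 0.270), which made it the 1 member under an unadjusted p of 0.05 with the block. Without the 6 h GW5074 array of letter A the fitted difference was -0.08, and without that of letter B it was -0.28. The second Mcl1 probe set had -0.26 and was also lower in 3 of 3 pairs (limma adjusted p = 0.983, and 0.382 with the block). Neither passed. In the letter B pair of 1372520_at the sign depends on the normalisation, since the deposited intensity with GW5074 was the higher (1138 against 1129). As at 3 h, agreement of 3 pairs has no share over all probe sets beside it and is not read as an effect.

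**Figure D3:**
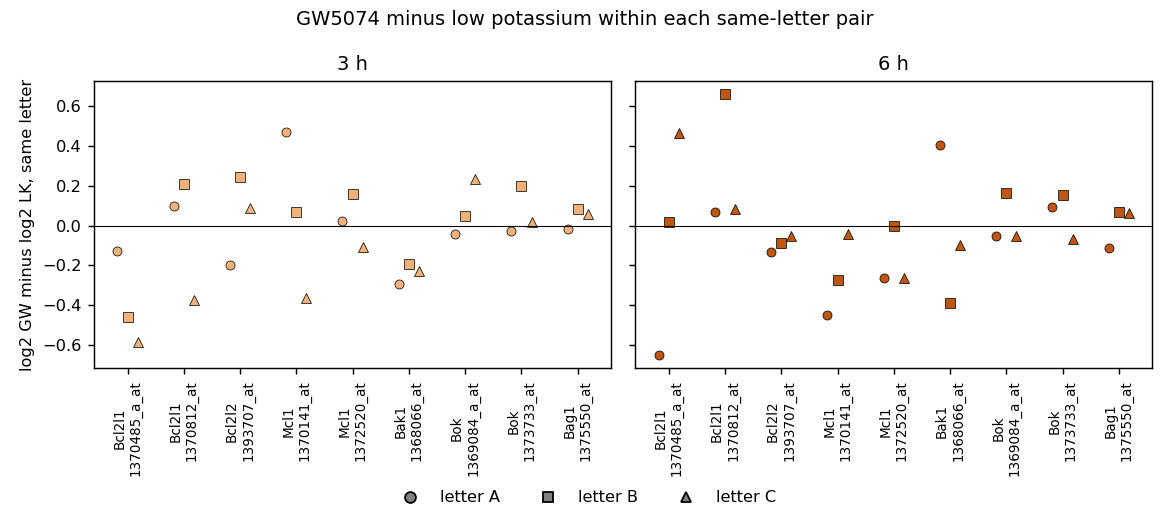
Log2 difference between the GW5074 array and the low-potassium array of the same letter and time, for each tested member probe set, with 3 pairs at 3 h and 3 at 6 h. Bak1 lies below 0 in the 3 pairs at 3 h, and Mcl1 lies at or below 0 in the 3 pairs at 6 h.

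For Bcl2l1 at 6 h, the GW5074 array had the higher value on probe set 1370812_at in 3 of 3 pairs, by 0.07, 0.66 and 0.08 on the log2 scale for letters A, B and C. The fitted difference was 0.27 (interval -0.18 to 0.72, limma adjusted p = 0.983, and 0.394 with the block), and the letter B pair gave most of it. The other tested Bcl2l1 probe set had -0.06 (interval -0.59 to 0.48). Bcl2l2 was lower in 3 of 3 pairs by a small amount, -0.09 (interval -0.37 to 0.19), and Bag1 differed by 0.01 (-0.24 to 0.26), Bak1 by -0.03 (-0.41 to 0.36) and Bok by 0.06 (-0.45 to 0.57). Averaged over both times the differences were 0.12 for Bcl2l1 on 1370812_at and -0.22 on 1370485_a_at, so its probe sets differ in sign. They were -0.02 for Bcl2l2, -0.08 for Mcl1, -0.13 for Bak1, 0.06 for Bok and 0.02 for Bag1. With the block, the lowest limma adjusted p of a member in the average was 0.635, that of 1370485_a_at.

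The time comparison asked which of these genes changed between 3 h and 6 h within a treatment. In low potassium 1 of the 9 probe sets passed (Bag1, lower at 6 h), and with GW5074 2 of 9 (Bag1 and Mcl1, both lower). Over all probe sets tested, limma called 22.7% in low potassium and 25.0% with GW5074, of which the calls that were lower at 6 h made up 11.0% and 11.9% of those tested. Counts of 1 and 2 among 9 are too few to set the members apart from these shares. Their median log2 change was -0.10 in low potassium and -0.09 with GW5074, against -0.0028 and -0.0036 for all probe sets tested, and the median absolute change was 0.19 and 0.20 against 0.30 and 0.31.

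The 3 h and 6 h intensities did not overlap for 4 of the 9 probe sets in low potassium (Bag1, Mcl1 on 1372520_at, Bcl2l2 and Bak1) and for 3 with GW5074 (the same without Bak1). That held for 39.3% and 40.3% of all probe sets. The Mcl1 change had 29.0% of probe sets below it in low potassium and 17.06% with GW5074, the Bak1 change in low potassium had 18.24% below it, and the Bcl2l2 change in low potassium had 23.84% above it. The treatment and time comparisons share arrays, so their values are given side by side and not correlated.

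**Figure D4:**
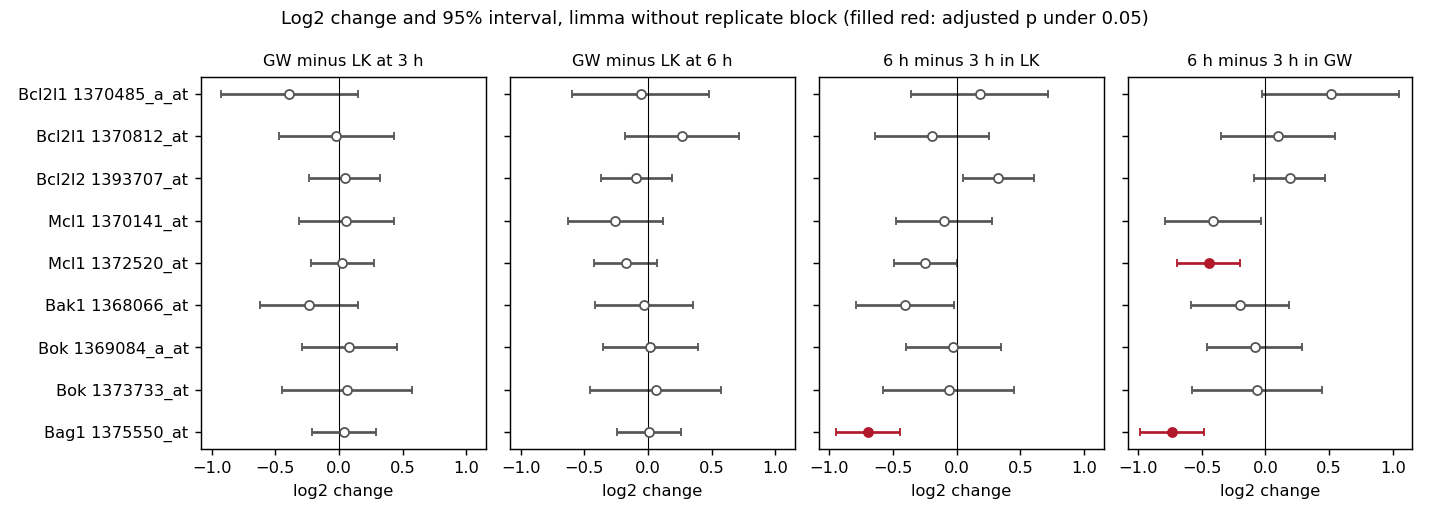
Fitted log2 change (normalised intensity plus 16) with its 95% interval for each tested member probe set, for GW5074 minus low potassium at 3 h and 6 h and for 6 h minus 3 h in each treatment. All treatment intervals cover 0, and the Bag1 intervals with time lie between -0.98 and -0.45.

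**Figure D5:**
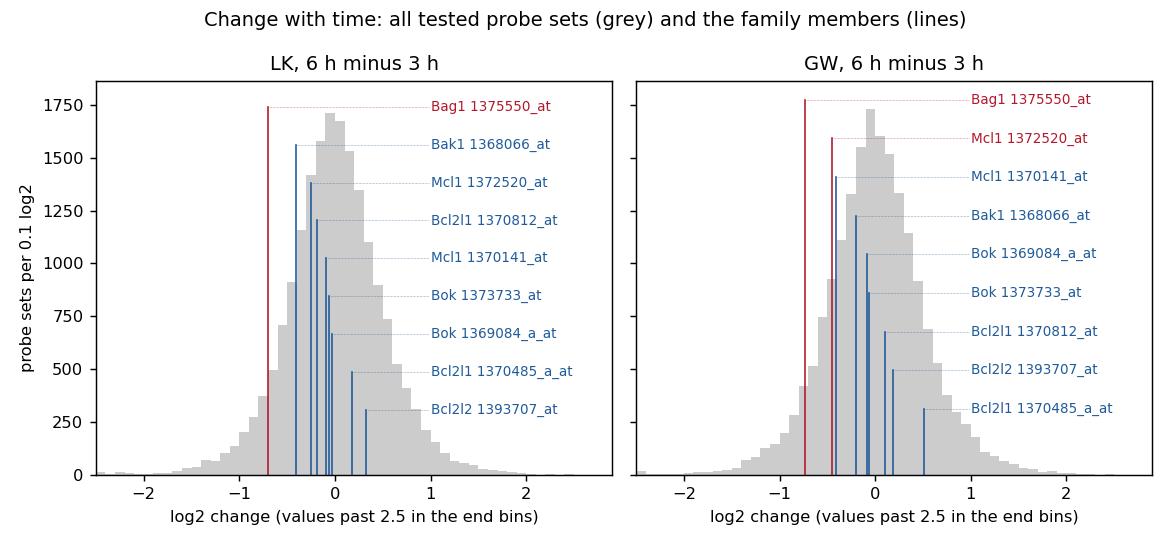
Histogram of the log2 change from 3 h to 6 h over the 18625 probe sets tested, in low potassium and with GW5074, with lines at the changes of the members; the heights of the lines differ only to keep the names apart. Bag1, at -0.70 and -0.73, lies furthest to the left of the members, with 7.51% and 7.14% of probe sets lower.

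Markers of cell types were counted in the same time comparisons, where 22.7% (low potassium) and 25.0% (GW5074) of all probe sets were called. Of the 9 granule neuron markers tested, 4 rose and 1 fell in low potassium (median log2 change 0.44) and 8 rose with GW5074 (median 0.83), while no marker list had a call for GW5074 against low potassium in the fit without the block. Summed astrocyte intensity was 2255 to 3056 and 2195 to 2612 at 3 h (low potassium and GW5074), and 3529 to 5919 and 3987 to 4587 at 6 h, with 2 of the 7 markers rising in each treatment. Oligodendrocyte lineage intensity was 3139 to 3978 and 2662 to 3388 at 3 h and 2330 to 2536 and 1885 to 2786 at 6 h, with 1 of 7 falling in each. Summed microglial intensity was between 302.6 and 678 on all arrays, with no call among the 4 markers tested. Summed endothelial and fibroblast intensity was between 156.9 and 317.2, with no call among the 3 tested. These sums, like those of astrocytes and the oligodendrocyte lineage, include listed markers that were too dim to be tested. Of the 6 Purkinje and GABAergic markers 1 fell in each treatment. The oligodendrocyte, microglial, endothelial and Purkinje lists each had a smaller share called than all probe sets. In bulk RNA, fewer cells of a type and less RNA per cell cannot be told apart, and the part of these marker levels in the falls of Bag1 and Mcl1 was not tested.

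Upstream of the members stand the BH3-only proteins, which sense damage and release or activate Bax and Bak. Of 10 listed, 7 were tested. For this and the next lists, 22.7% of all probe sets tested were called with time in low potassium and 25.0% with GW5074. The lists are too short to be set apart from these shares. In low potassium Hrk rose by 1.43 on the log2 scale between 3 h and 6 h (limma adjusted p = 0.00321), Bid fell by 0.43 (limma adjusted p = 0.0321), and 5 did not pass. With GW5074 none of the 7 passed, and Hrk had 0.40 (limma adjusted p = 0.308). The difference between these Hrk changes was -1.03 (limma adjusted p = 0.9998, and 0.120 with the block), so it was not shown. For GW5074 against low potassium at 6 h, Bid, which caspase-8 cleaves into its active form, had 0.42. It passed with the block (limma adjusted p = 0.0461), as did 1.87% of all probe sets, but not without it (limma adjusted p = 0.919). Hrk had -0.72 in this comparison (limma adjusted p = 0.0648 with the block).

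Bag1 belongs to a family of co-chaperones that share the BAG domain. Of 11 listed relatives and partners, 7 were tested, and 2 fell in each treatment. Over all probe sets tested, calls lower at 6 h made up 11.0% in low potassium and 11.9% with GW5074. Bag2, a co-chaperone that inhibits the ubiquitin ligase CHIP, fell by 2.15 on the log2 scale in low potassium and fell by 1.92 with GW5074 (limma adjusted p = 0.0001439 and 0.0001888). Stub1, which encodes CHIP, had log2 changes of -0.74 and -0.48 (limma adjusted p = 0.00266 and 0.0210). The median log2 change of the 7 was -0.35 in low potassium and -0.12 with GW5074. None passed for GW5074 against low potassium, with or without the block.

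Among 7 listed genes that control Mcl-1 protein turnover or bind it, 5 were tested. Only 1 passed with time in each treatment, against 22.7% (low potassium) and 25.0% (GW5074) of all probe sets. Fbxw7, the F-box protein that marks Mcl-1 for degradation, rose with time by 0.65 in low potassium (limma adjusted p = 0.00347) and by 0.39 with GW5074 (limma adjusted p = 0.0389). Usp9x, the deubiquitinase that stabilises Mcl-1, had 0.34 and 0.27 (limma adjusted p = 0.0731 and 0.140). The list's median was 0.17 in low potassium and 0.27 with GW5074.

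Downstream, 11 of 16 listed apoptosome and caspase genes were tested. Casp2, an initiator caspase, rose with time by 0.83 in low potassium and 0.80 with GW5074 (limma adjusted p = 0.0170 and 0.0184), and Diablo, which frees caspases from their inhibitors, fell by 0.39 in both (limma adjusted p = 0.0405 and 0.0371). With GW5074, Apaf1, the scaffold of the apoptosome, rose by 0.70 (limma adjusted p = 0.0233) and Casp9, the caspase it activates, fell by 0.53 (limma adjusted p = 0.04795). The remaining 9 genes in low potassium and 7 with GW5074 did not pass, and 22.7% and 25.0% of all probe sets were called. Of 12 mitochondrial channel and fission genes, Tmbim6, an inhibitor of Bax-driven death in the endoplasmic reticulum, fell by 0.36 in low potassium (limma adjusted p = 0.0204), 11 did not pass, and none of the 12 passed with GW5074. Of 7 other Bcl-2 relatives 3 were tested and none passed, with Bcl2a1 at -1.03 with GW5074 (limma adjusted p = 0.0518). No gene of these 3 lists passed for GW5074 against low potassium, with or without the block.

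Within each array, the log2 intensity of Bak1 minus that of Mcl1 was set out as a description, since the 2 probe sets have unlike brightness and only the shift between groups can be read. It was -4.25 ± 0.134 at 3 h in low potassium, -4.51 ± 0.0984 at 3 h with GW5074, -4.41 ± 0.147 at 6 h in low potassium and -4.26 ± 0.392 at 6 h with GW5074 (SD, n = 3 each). The 6 h GW5074 arrays spread from -4.63 to -3.85 and covered the means of all 4 groups.

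The genes whose pattern over the 12 arrays was most like that of each member are given by Pearson's r of the normalised log2 intensity, as a description over arrays that share groups and letters. Bag1 was followed most closely, by Actr3b (r = 0.991), Pam (0.990) and Rcc2 (0.988). Mcl1 was most like Ppil3 (r = 0.963), Tmod1 (0.961) and Hnrnpa1 (0.955), and Bcl2l2 most like Zfp280d (r = 0.945), Ntsr1 (0.940) and Papolg (0.932). Bok went with Utp3 (r = 0.955), Tlk1 (0.9385) and Rimklb (0.928), and Bak1 with Slc66a1 (r = 0.929), Hagh (0.901) and Gal3st1 (0.873). Bcl2l1 had the least close neighbours, Ppp1r12c (r = 0.865), Gnal (0.855) and Fndc10 (0.834). No other member was among these.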

How the data were processed

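The deposited intensities are linear, with 1 value for each probe set on an array. The authors scaled the arrays to a common trimmed mean, as the values show, with software and summarisation not given in the sources used here. Of 31099 probe sets, 57 controls were left out, 20826 carry 1 symbol, 436 several and 9780 none (names updated through a GRCr8 gene table). Values were quantile-normalised, 16 was added and log2 taken. Probe sets with a mean at or above the 40th percentile were kept (18625). The fit was made in R 4.3.3 with limma 3.58.1 (eBayes with trend, two-sided, 4 group means, 8 residual degrees of freedom, Benjamini-Hochberg at 0.05). It was run on simulated data with planted changes and independent arrays. That check lacks the letter pairing of these arrays, so it does not cover its effect. Figures used matplotlib 3.10.9.

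A gene stands by its brightest tested probe set. From the pathway lists every gene called is named, with some of the uncalled genes that were among the 3 of smallest p. Likeness is given by the 3 closest genes. The members and lists were chosen with earlier results of these data known.

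The letters in the labels pair arrays within a time: after removal of group means, arrays of the same letter correlated by 0.425 (A), 0.2095 (B) and 0.542 (C) at 3 h, by 0.293, 0.650 and 0.572 at 6 h, and across times by -0.0668 to 0.182. The paired fit (block) was an alternative, with 4 residual degrees of freedom. Other alternatives changed the normalisation, pseudocount, filter, trend and arrays used. Motifs were searched in RefSeq promoters (GRCr8).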

Additional observations from a re-analysis of the deposited data

How the results depend on the processing

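The falls of Bag1 kept their call in all 22 alternatives each (log2 change -0.739 to -0.639 in low potassium and -0.805 to -0.644 with GW5074), and the fall of Mcl1 with GW5074 kept it in 20 of 22. Alternatives that left out a low-potassium array hardly moved this Mcl1 change (-0.4504 to -0.4444) and could say little about it. Both Mcl1 losses came from leaving out a GW5074 array. Leaving out an array of the other treatment hardly moved the Bag1 changes (-0.6988 to -0.6932 in low potassium, -0.7335 to -0.7285 with GW5074). The filter settings and the mean of a gene's probe sets left them unmoved, since Bag1 has 1 probe set. These alternatives could say little about the Bag1 changes. The replicate block changed no member's call in the treatment comparisons. The number of member probe sets called with time in low potassium was 2 with no normalisation beyond the deposited scaling, Bcl2l2 being the addition. With GW5074 it was 1 to 3 when single arrays were left out, the 3 being Bag1 and both Mcl1 probe sets. An alternative without both 6 h arrays of letter B was chosen after seeing the data, and under it the Bcl2l1 change in low potassium was 0.0132. No treatment comparison reached a call under any alternative for a member, and the signs that turned were of differences that had not passed; the cause was not tested. With the replicate block at 3 h, leaving out pair B gave for Bcl2l2 -0.0549, Bok -0.00291 and Mcl1 -0.0416, and leaving out pair C gave Bcl2l1 0.156. At 6 h the same block gave, without pair B, Bag1 -0.0248 and Bak1 0.151, and without pair C, Bag1 -0.0242 and Bak1 0.00668. Averaged over both times, Bcl2l2 was 0.03775 with the replicate block and without the 3 h pair A, and Bcl2l1 was -0.04935 as the mean of its probe sets.

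Leaving out single arrays, the GW5074 difference at 3 h ran from -0.168 to 0.199 for Bcl2l1, -0.0221 to 0.144 for Bcl2l2, -0.00468 to 0.127 for Bok and -0.0286 to 0.0750 for Mcl1. At 6 h it ran from -0.06275 to 0.0967 for Bag1, -0.138 to 0.0742 for Bak1 and -0.1785 to 0.365 for Bok. Averaged over both times it ran from -0.0104 to 0.0694 for Bag1, -0.0567 to 0.0264 for Bcl2l2 and -0.0571 to 0.215 for Bok. The time change ran from -0.350 to 0.0284 for Bcl2l1 in low potassium, from -0.203 to 0.176 for Bok in low potassium and from -0.2545 to 0.237 for Bok with GW5074. For Bok, both ends of each range came from leaving out an array of letter B or C. Signal limits the Bcl2 probe set and the further Bcl2l1 and Bcl2l2 probe sets, which were not tested.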
